A study of Mus musculus with 4 samples.

Results

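Hlf, Mecom, Prdm16, Mllt3, Mycn, Erg, Fli1 and Etv6 encode nuclear regulators of transcription that are known for their part in long-term haematopoietic stem cells. They were chosen by name with their levels in these same libraries already known, above all the lower values of Hlf and Mecom after knockdown of miR-99. Their differences between the groups are therefore described. Calls made on them by tests over all genes are given but not read as evidence. All 8 genes were found among 45232 gene rows, and all 8 passed the filter on low counts that kept 15320 genes.

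RNA was measured in mouse LSK cells, the fraction of blood-forming tissue that lacks lineage markers and carries Kit and Sca-1, home to the stem cells and the progenitors next to them. These cells were GFP-positive and were sorted 3 months after long-term stem cells had been transplanted. In the Scr group the transplanted stem cells carried a scrambled control, and in the KD group, miR-99 KD in the labels, they carried a knockdown of the microRNA miR-99. The transplantation, the GFP label and the LSK gate were common to both groups. Each group had 2 mice and 2 libraries, while the sources used here do not give the strain or age of the mice, or the vector. Mature miR-99 was not measured in these libraries, so the knockdown itself is not checked here.

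Haematopoietic stem cells are kept undivided for long periods and still produce all blood lineages. A small set of DNA-binding proteins is known to hold this state, and several of them are lost from the transcript pool as cells commit to a lineage. Hlf and Mecom are among the genes known to be most restricted to the stem cell end of this path. Erg and Fli1 are shared with megakaryocytes and endothelium, and Mycn acts beside Myc in growth control. The comparison asks how the levels of these factors differ in engrafted LSK cells with the knockdown.

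The microRNAs are shown because they name the perturbation, and the 3 family members share their seed, bases 2 to 8, set in capitals. The sequences are those of RefSeq.
mmu-miR-99a-5p: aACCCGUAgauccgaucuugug
mmu-miR-100-5p: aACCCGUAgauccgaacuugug
mmu-miR-99b-5p: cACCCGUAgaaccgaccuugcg
The 7-base match to this seed, TACGGGT, was in the 3′ UTR and in the coding sequence of 0 of the 8 factors, in the longest GENCODE protein-coding transcript of each. Among 20532 genes with a 3′ UTR of at least 50 bases, 1.11% held it in the 3′ UTR and 1.57% in the coding sequence. The 6-base match ACGGGT was in the 3′ UTR of Hlf, Prdm16 and Fli1, at 1 place in each, and in 5.52% of all these genes. The 3′ UTRs of Hlf, Prdm16 and Fli1 are 4223, 4663 and 1572 bases long, against a median of 968 bases. The matches are shown in capitals with 10 bases on either side.
Hlf site: aaagcacaaaACGGGTtttagtcaaa
Prdm16 site: agaggaatccACGGGTcccacccaag
Fli1 site: ttatcagcacACGGGTctcatcattg
A match of letters is a description and not a site of action.

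Windows around the annotated starts, 250 bases before to 50 after, were in the RefSeq table for 7 of the 8 factors, 11 windows in all, and Fli1 had none. The windows of Mecom and Prdm16, which encode related zinc-finger proteins, are shown because they hold the longest run of letters common to any 2 different factors. The run is 24 bases long within the windows and is set in capitals. It reaches the last base of the Mecom window, so its full length was not determined. It begins 27 bases after the distal start of Mecom and 10 bases after the start of Prdm16. Among all 32851 windows of the table only these 2 held it. The next longest common run of any other pair of windows was 14 bases, a GC repeat common to Prdm16 and Erg.
Mecom, distal start, GRCm38.p6 chr3:30509710-30510009, minus strand: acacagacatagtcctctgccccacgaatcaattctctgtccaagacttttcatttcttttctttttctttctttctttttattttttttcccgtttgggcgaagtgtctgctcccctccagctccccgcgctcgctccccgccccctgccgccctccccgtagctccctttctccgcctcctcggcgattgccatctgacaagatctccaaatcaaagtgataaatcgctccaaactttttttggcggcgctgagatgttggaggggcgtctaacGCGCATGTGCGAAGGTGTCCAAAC
Prdm16, GRCm38.p6 chr4:154636824-154637123, minus strand: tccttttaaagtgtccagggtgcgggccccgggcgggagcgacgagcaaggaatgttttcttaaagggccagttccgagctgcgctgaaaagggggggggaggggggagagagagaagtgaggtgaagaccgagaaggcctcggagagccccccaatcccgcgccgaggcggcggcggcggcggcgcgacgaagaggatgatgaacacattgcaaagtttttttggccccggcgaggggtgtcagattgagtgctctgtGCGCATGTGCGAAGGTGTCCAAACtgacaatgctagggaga
Mecom has another, proximal start in the table. Transcripts from the distal start are known to encode the long form with a PR domain, and those from the proximal start the shorter EVI1 form. Counts per gene pool both, so the forms were not measured apart.

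The Hlf window is shown because Hlf had the smallest spread within the groups among the factors with a large difference. It was rich in CG dinucleotides, at 30, against a median of 7 over all windows.
Hlf, GRCm38.p6 chr11:90390868-90391167, minus strand: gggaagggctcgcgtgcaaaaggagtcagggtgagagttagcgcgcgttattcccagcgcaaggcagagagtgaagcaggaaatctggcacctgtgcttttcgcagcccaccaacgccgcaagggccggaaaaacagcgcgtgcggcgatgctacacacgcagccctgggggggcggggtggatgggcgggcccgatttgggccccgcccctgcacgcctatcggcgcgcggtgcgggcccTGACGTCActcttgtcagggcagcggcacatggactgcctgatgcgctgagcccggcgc
The capitals mark a cAMP response element, TGACGTCA, which begins 9 bases before the start and was looked for after the window had been read. It was in 1.79% of all windows and in no other window of the factors. On both strands, GGAAGT, a longer form of the GGAA core read by ETS proteins, was in 0 of the 11 windows and in 23.8% of all. The Myc E-box CACGTG and the PAR bZIP palindrome TTACGTAA were also in 0 of the 11, against 7.15% and 0.119%. AGATAA, letters that hold a GATA core, was in 1 window of Erg and the TATA letters TATAAA in another window of Erg, against 11.2% and 13.6%. These absences say only that the exact letters are not in these windows. Other letters around the same cores were not counted, and GGAA alone is in the Hlf window shown.

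The 4 libraries gave 27295197 to 32350590 gene counts each. Lines pasted below the counts do not carry the numbers of the labels. The lines under Scr 1 are headed Scr-2, and those under KD 1 and 2 are headed Zip99a-2 and Zip99a-1. Under KD 2 a further total of 29793890, headed Scr-1, matches the gene counts of none of the 4 libraries. Replicate numbers are used here as names only. The libraries of a group differed by far more than counting noise, and nothing says whether a library is a single mouse, so the spread may be technical in part. The Pearson correlation of log2 CPM was 0.972 between the Scr libraries and 0.944 between the KD libraries. Between a Scr and a KD library it was 0.947 to 0.956, so the KD libraries were less alike than libraries of opposite groups. With 2 libraries against 2, an exact two-sided permutation test of a single gene cannot go below a p of 0.333.

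Both KD libraries were below both Scr libraries for 7 of the 8 factors, and the libraries overlapped for Mllt3. Of the 15320 genes kept, 26.0% had both KD libraries below both Scr libraries and 24.5% had both KD libraries above both Scr libraries. Because the factors were chosen with these values known, the count is a description. The median log2 difference, KD minus Scr, was -0.97 for the 8 factors and 0.02 for all genes kept. Their summed level was 883 and 873 CPM (read counts relative to the library total, scaled by TMM) in Scr 1 and 2, and 446 and 460 CPM in KD 1 and 2. In bulk RNA, fewer cells that carry a transcript and less of it per cell cannot be told apart.

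**Figure D1:**
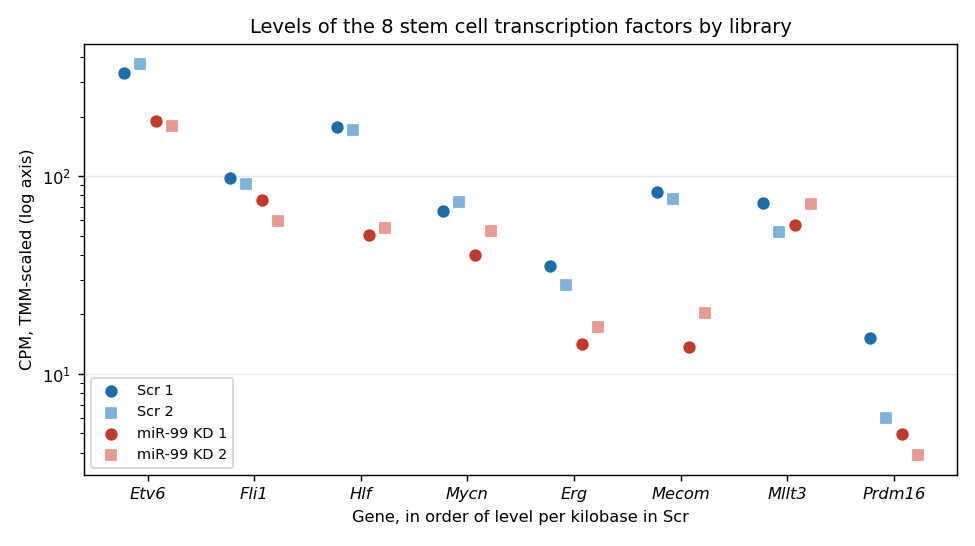
TMM-scaled CPM of each factor on a log axis, with a point for each of the 4 libraries and genes ordered by level per kilobase of exons in Scr. The red KD points lie below the blue Scr points for every gene but Mllt3, with the widest gaps for Hlf and Mecom, and Scr 2 lies close to KD for Prdm16.

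Hlf (ENSMUSG00000003949) encodes a PAR bZIP protein, a leucine-zipper factor known to mark long-term stem cells. It had 5940 and 5024 counts in Scr 1 and 2 and 1335 and 1448 in KD 1 and 2. These are 178, 172, 50.6 and 54.5 CPM in the same order. The groups were tight and far apart, since the lowest Scr library stood 3.16-fold above the highest KD library while libraries of a group differed by at most 1.08-fold. The mean in KD was 30.0% of that in Scr, with a log2 difference of -1.74 ± 0.13 (SE from 2 libraries a group). Here and below this SE is the size of the difference over the root of the F statistic of edgeR's quasi-likelihood test. That test shares information on spread over all genes, so the SE is not the spread of the libraries alone. For Hlf the SD between replicates was 0.058 on the log2 scale.

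Mecom (ENSMUSG00000027684) encodes a zinc-finger protein required for stem cell maintenance, known also as EVI1. It stood at 83.7 CPM in Scr 1 and 77.0 CPM in Scr 2, and at 13.8 and 20.3 CPM in KD 1 and 2, from 2800, 2243, 363 and 540 counts. The groups did not overlap, and the KD libraries differed from each other by 1.48-fold. The mean in KD was 21.2% of that in Scr, the lowest such share of the 8, and the log2 difference was -2.24 ± 0.24 (SE from 2 libraries a group). It was -2.54 without KD 2 and -1.98 without KD 1. Among the 15320 genes kept, 1.42% had a lower log2 difference than Mecom and 2.66% a lower one than Hlf. The antisense transcript Mecomos, which shares 81 exon bases with Mecom, had 11, 4, 0 and 10 counts, few beside those of Mecom.

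Prdm16 (ENSMUSG00000039410) encodes the closest relative of Mecom among the factors and is known for stem cell maintenance and for brown fat. It had 508 counts in Scr 1, 174 in Scr 2, 131 in KD 1 and 103 in KD 2, the fewest of the 8. At 15.2, 5.97, 4.97 and 3.88 CPM, Scr 1 stood apart from the other 3 libraries. The 95% exact Poisson interval ran from 5.12 to 6.93 CPM in Scr 2 and from 4.15 to 5.89 CPM in KD 1, so these libraries could not be told apart at this depth. The log2 difference was -1.26 ± 0.51 (SE from 2 libraries a group), but -0.46 without Scr 1 and -1.79 without Scr 2. Mecom and Prdm16 therefore shared a direction but not an evenness, since Scr 1 and 2 differed by 1.09-fold in Mecom and 2.54-fold in Prdm16.

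Mllt3 (ENSMUSG00000028496) encodes AF9, a reader of histone marks that recruits elongation factors and is known to support stem cell self-renewal. It stood at 73.2 CPM in Scr 1 and 52.1 CPM in Scr 2, and at 56.6 and 72.3 CPM in KD 1 and 2. The groups overlapped fully, with the highest value in Scr 1 and the lowest in Scr 2. The log2 difference was 0.04 ± 0.23 (SE from 2 libraries a group), and it turned with the library left out, from -0.20 without Scr 2 to 0.28 without Scr 1. Scaling by library totals with no further factor also turned it, to -0.05. Of the 8 factors Mllt3 was the only one without a direction held in all settings.

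Mycn (ENSMUSG00000037169) encodes N-Myc, a growth-promoting bHLH factor that acts beside Myc in stem cells. It stood at 67.0 CPM in Scr 1 and 73.9 CPM in Scr 2, and at 40.1 and 53.1 CPM in KD 1 and 2. The groups did not overlap, with 1.26-fold between the nearest libraries. The log2 difference was -0.60 ± 0.19 (SE from 2 libraries a group). Its relative Myc was higher in both KD libraries, at 556 and 551 CPM in Scr against 704 and 689 CPM in KD. Per kilobase of exons, Mycn was 0.0994 and 0.110 of Myc in Scr 1 and 2 and 0.0470 and 0.0636 of it in KD 1 and 2.

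Erg, Fli1 and Etv6 encode ETS proteins, which share a DNA-binding domain that reads a GGAA core. Erg (ENSMUSG00000040732), needed for stem cell self-renewal, stood at 35.3 CPM in Scr 1 and 28.0 CPM in Scr 2, and at 14.3 and 17.4 CPM in KD 1 and 2. The groups were separate, and the mean in KD was 49.9% of that in Scr, a log2 difference of -1.0 ± 0.23 (SE from 2 libraries a group). Etv6 (ENSMUSG00000030199), a repressor known as TEL, had the most counts of the 8, 11178 and 10837 in Scr 1 and 2 and 5004 and 4754 in KD 1 and 2. That is 334, 372, 190 and 179 CPM, with the nearest libraries 1.76-fold apart and a log2 difference of -0.94 ± 0.14 (SE from 2 libraries a group). Gm17089, a transcript antisense to Etv6 that shares 135 exon bases with it, had 78 and 80 counts in Scr and 21 and 28 in KD, few beside those of Etv6.

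Fli1 (ENSMUSG00000016087), a partner of Erg in stem cells and a driver of the megakaryocyte lineage, had the smallest difference of the 7 that were lower. It stood at 97.5 CPM in Scr 1 and 91.2 CPM in Scr 2, and at 75.8 and 59.2 CPM in KD 1 and 2. The nearest libraries differed by 1.20-fold, less than the 1.28-fold between the KD libraries. The log2 difference was -0.48 ± 0.17 (SE from 2 libraries a group), and it ran from -0.68 without KD 1 to -0.31 without KD 2. Per kilobase, the ratio of Erg to Fli1 was 0.364 and 0.309 in Scr 1 and 2 and 0.189 and 0.295 in KD 1 and 2, so in KD 2 it was close to Scr 2.

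Levels of different genes were compared per kilobase of annotated exons, a length that counts the exons of all isoforms. In Scr the order of levels was Etv6 at 59.0 ± 4.5 CPM per kilobase (SD, n = 2), Fli1 at 27.1 ± 1.3, Hlf at 26.2 ± 0.53, Mycn at 21.4 ± 1.5, Erg at 9.13 ± 1.5, Mecom at 6.46 ± 0.38, Mllt3 at 5.22 ± 1.2 and Prdm16 at 1.13 ± 0.70. Neighbours in this order had separate library values except Fli1 and Hlf, which overlapped. In KD the order was Etv6 at 30.8 ± 1.3, Fli1 at 19.4 ± 3.4, Mycn at 14.1 ± 2.8, Hlf at 7.87 ± 0.42, Mllt3 at 5.37 ± 0.92, Erg at 4.56 ± 0.63, Mecom at 1.37 ± 0.37 and Prdm16 at 0.474 ± 0.082 CPM per kilobase. Here Mllt3 and Erg overlapped. Hlf was thus level with Fli1 in Scr and below Mycn in KD, and Mecom was above Mllt3 in Scr and below it in KD. Among the 15320 genes kept, Hlf ranked 2615 and 2691 per kilobase in Scr 1 and 2 and 6643 and 6334 in KD 1 and 2, and Mecom 7049, 7374, 11107 and 10261.

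edgeR's quasi-likelihood test called 0 of the 8 factors at an adjusted p of 0.05, and 0.0% of all genes kept. DESeq2 called 4 of the 8, Hlf, Mecom, Erg and Etv6, each lower in KD, while it called 4.13% of all genes lower and 5.79% in either direction. With no filter edgeR also called these 4 lower, with 3.0% of the 25446 genes then tested called lower. Without KD 1, and likewise without KD 2, it called Hlf, Mecom and Etv6 lower, with 4.32% of 16483 and 1.39% of 16430 genes called lower. Without either Scr library it called 0 of the 8. limma-voom called 0 of the 8 and 0.0% of all genes, and the 0 calls of edgeR stood beside 2390 genes at an unadjusted p under 0.05. These counts describe the factors and, given how they were chosen, carry no weight as evidence.

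**Figure D2:**
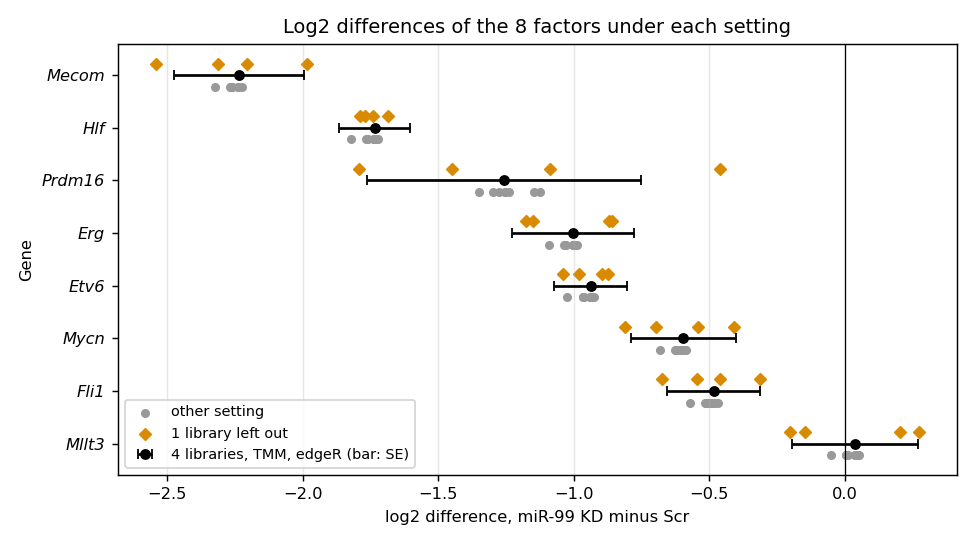
Log2 difference of each factor, KD minus Scr, on the horizontal axis: black points with SE bars for all 4 libraries, orange diamonds with 1 library left out, grey points for the other settings. Mecom and Hlf stay left of -1.5 in every setting, Prdm16 runs from -1.79 to -0.46, and Mllt3 lies on both sides of 0.

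Genes with the pattern most like that of Hlf were sought by the Euclidean distance between 4 values, log2 CPM in each library minus the gene's mean. Over 9515 genes with a mean of at least 10 CPM the nearest included Efcc1, Arhgef40, Plekhm3 and Klhl4, at distances of 0.0471 to 0.151 on the log2 scale. Efcc1 stood at 25.4, 24.3, 6.90 and 7.49 CPM in Scr 1, Scr 2, KD 1 and KD 2. The genes nearest to Mecom were P3h3, Nkx2-3, Gimap5, 9030619P08Rik and 9630013D21Rik, at 0.280 to 0.486. Nkx2-3, a homeobox factor, stood at 18.3, 14.8, 2.96 and 5.12 CPM in the same order of libraries. Hlf ranked 12 among the genes nearest to Mecom, and Mecom 97 among those nearest to Hlf. Erg, Etv6, Mycn and Fli1 ranked 184, 218, 728 and 1084 in likeness to Hlf, and Mllt3 4809.

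The families of the factors were then counted, with p adjusted over all genes. In edgeR's quasi-likelihood test no gene of these lists passed at an adjusted p of 0.05. The shares over all genes kept, to set beside each list below, were 26.0% lower in both KD libraries and 24.5% higher. DESeq2 called 4.13% of all genes lower and 5.79% in either direction. At an unadjusted p under 0.05 edgeR found 2390 of 15320 in either direction. The first list held the other PAR bZIP genes Tef and Dbp and the related bZIP gene Nfil3. Both KD libraries were below both Scr libraries in 2 of them and the libraries overlapped in 1. Tef, the relative that binds the same sites as Hlf, stood at 43.8 and 57.8 CPM in Scr against 31.1 and 22.4 in KD, with a log2 difference of -0.92 ± 0.25 (SE from 2 libraries a group) and an edgeR adjusted p of 0.233. It was the only gene of the list that DESeq2 called. Dbp differed little, at 10.4, 8.82, 8.38 and 8.81 CPM, and Nfil3, a repressor at the same sites, was high only in KD 1, at 18.5 CPM against 3.43 to 6.66 in the other libraries. Per kilobase, Hlf was 4.77 and 3.52 times Tef in Scr 1 and 2 and 1.91 and 2.87 times Tef in KD 1 and 2.

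Of 8 other PRDM genes kept, 5 were lower in both KD libraries and 3 higher, with a median log2 difference of -0.29. Prdm15 was higher in both KD libraries, at 29.1 and 33.3 CPM in Scr against 38.7 and 59.5 in KD, with an edgeR adjusted p of 0.318. Prdm9, a gene of meiosis, was at 2.95 CPM or less in every library. Before adjustment edgeR counted 2 PRDM genes lower and 1 higher at p under 0.05. The median of the list turned to 0.22 over the 5 members with at least 10 CPM in 2 libraries.

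Of 11 cofactors of Mecom and Prdm16, 6 were lower in both KD libraries, 3 higher and 2 overlapped. Over all genes kept the shares were 26.0% lower and 24.5% higher. The DNA methyltransferases Dnmt3a and Dnmt3b, both known to bind Mecom, had the largest differences of the 4 with the smallest p. Dnmt3a stood at 41.6 and 64.7 CPM in Scr against 27.6 and 26.0 in KD, with an edgeR adjusted p of 0.231, and Dnmt3b at 74.8, 96.7, 51.4 and 45.7 CPM, with 0.224. DESeq2 called both lower and none of the others. The corepressor genes Ctbp1 and Ctbp2, named after their values were seen, had log2 differences of opposite sign, 0.21 and -0.26.

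The MYC network, which holds the partners and rivals of Mycn, had a median log2 difference of 0.17 over 10 genes kept, with 4 higher in both KD libraries, 3 lower and 3 overlapping. Max, the obligate partner of Myc and N-Myc, stood at 78.0 and 64.7 CPM in Scr against 90.5 and 139 in KD, with an edgeR adjusted p of 0.295. Myc itself had a log2 difference of 0.33 ± 0.12 (SE from 2 libraries a group) and an adjusted p of 0.308 in the same test. Mnt, a repressor that competes for Max, was lower, at 13.8, 12.6, 7.66 and 4.89 CPM. DESeq2 called 0 genes of this list, edgeR counted 2 higher and 1 lower at an unadjusted p under 0.05, and the median turned to -0.10 without KD 1.

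Of 17 partners of Mllt3 kept, which act in transcript elongation and histone methylation, 10 overlapped, 4 were higher in both KD libraries and 3 lower, with a median of 0.02 as for all genes. Ccnt1, the cyclin of the elongation kinase, stood at 52.4 and 63.1 CPM in Scr against 81.7 and 106 in KD. Aff3 was lower, at 106, 111, 63.2 and 68.1 CPM, and DESeq2 called these 2 genes alone. Dot1l, the histone methyltransferase bound by AF9, stood at 44.6 and 40.3 CPM in Scr against 52.5 and 69.9 in KD, with an edgeR adjusted p of 0.311. The paralog Mllt1, named after its values were seen, overlapped like Mllt3 itself, at a log2 difference of 0.01.

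Of 16 other ETS genes kept, 7 were lower in both KD libraries, 3 higher and 6 overlapped, with a median log2 difference of -0.29. The 4 with the smallest p were lower and were the 4 that DESeq2 called. Etv3, a repressor, stood at 50.3 and 56.0 CPM in Scr against 21.4 and 20.5 in KD, a log2 difference of -1.34 ± 0.17 (SE from 2 libraries a group) with an edgeR adjusted p of 0.191. Etv5 and Etv4, both known to follow MAP kinase signalling, stood at 37.7, 52.4, 25.0 and 15.5 CPM and at 4.33, 3.71, 0.493 and 1.05 CPM. Elk3 stood at 58.9 and 61.1 CPM in Scr against 38.1 and 24.6 in KD. Before adjustment edgeR counted 5 ETS genes lower and 0 higher at p under 0.05. No test of the list as a set was made.

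Erg and Fli1 are known to bind together with Gata2, Lmo2, Lyl1, Runx1 and Tal1 in stem cells, a group called the heptad. The 5 partners did not share a direction, with 2 lower, 2 higher and 1 overlapping. Lmo2, a bridging protein, stood at 758 and 783 CPM in Scr against 470 and 495 in KD, with an edgeR adjusted p of 0.200. Tal1, a bHLH factor also needed for red cells, stood at 46.8 and 45.7 CPM in Scr against 72.5 and 76.7 in KD, with 0.213. DESeq2 called Lmo2 lower and Tal1 higher. Runx1 differed little, at 114, 108, 93.1 and 101 CPM, and Gata2, named after its values were seen, overlapped, at 276, 228, 219 and 258 CPM.

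Of 27 other stem cell transcription factors kept, 14 were lower in both KD libraries, 4 higher and 9 overlapped, with a median log2 difference of -0.49. Over all genes kept the shares were 26.0% lower and 24.5% higher. Nkx2-3, Nr4a1, Hoxa9 and Egr1 had the smallest p, with edgeR adjusted p of 0.197 to 0.213, and DESeq2 called each of them lower. Nr4a1, an immediate early nuclear receptor, stood at 143 and 91.3 CPM in Scr against 40.3 and 43.2 in KD, and Egr1 at 391, 396, 145 and 221 CPM. Hoxa9, a homeobox factor of stem cells, stood at 65.6, 79.5, 41.4 and 39.4 CPM. DESeq2 called 6 of these factors lower and 1 higher, the latter Zfpm1, a partner of GATA factors named after its values were seen, at 203, 177, 291 and 409 CPM. edgeR counted 11 lower and 2 higher at an unadjusted p under 0.05.

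Among 24 stem cell surface and signalling genes, 15 were lower in both KD libraries, 1 higher and 8 overlapped. Over all genes kept the shares were 26.0% lower and 24.5% higher. The median of -0.91 was close to the -0.97 of the 8 factors. Tie1, a receptor kinase shared with endothelium, stood at 64.0 and 52.1 CPM in Scr against 16.9 and 15.4 in KD, and Cdkn1c, the cell cycle inhibitor p57, at 9.44, 10.1, 2.24 and 2.67 CPM. Itga6, an integrin, stood at 106, 101, 45.4 and 41.8 CPM. Slamf1, Tek and Vwf, named after their values were seen, were among those that overlapped. Their log2 differences were -0.36, -0.36 and 0.22. DESeq2 called 10 of the 24, each lower, and at an unadjusted p under 0.05 edgeR found 12 lower and 0 higher. This list was drawn up with earlier results of these libraries known, so its direction is no separate evidence.

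**Figure D3:**
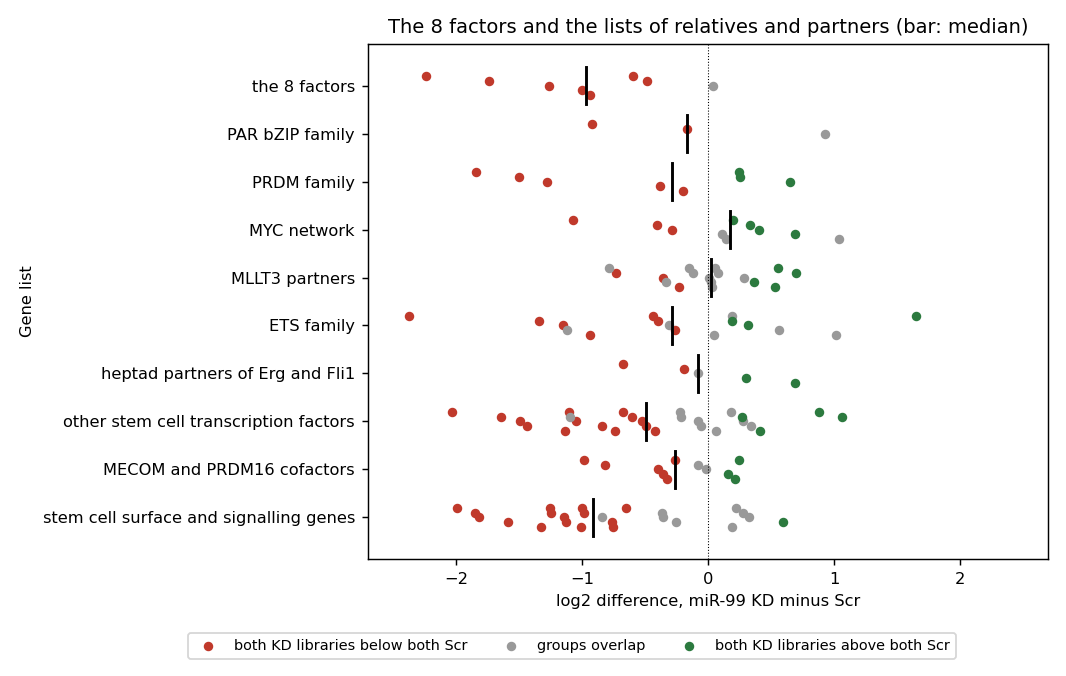
Log2 difference, KD minus Scr, of each gene kept (points) and its median (black bar) for the 8 factors and 9 lists of relatives, partners and other stem cell genes. Red points have both KD libraries below both Scr libraries, green points above, and grey points overlap. The 8 factors and the surface genes lie mostly left of 0, with medians of -0.97 and -0.91, while the partners of Mllt3 centre on 0.02.

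Markers of other cell types differed between libraries and are set beside the factors. The shares over all genes kept, to set beside each marker list, were 26.0% lower in both KD libraries and 24.5% higher. The 14 neutrophil markers were all highest in KD 1, where their sum was 29669 CPM, against 5339 in KD 2 and 8476 and 6323 in Scr 1 and 2. The 12 B cell markers were also all highest there, at a sum of 336 CPM against 43.4 to 97.4 in the other libraries. Between the groups, 6 of the B cell markers were higher in both KD libraries and 6 overlapped, and all 14 neutrophil markers overlapped. The part of these markers in the values of the factors was not tested. The sum of 16 erythroid markers was higher in both KD libraries, at 17131 and 16865 CPM against 12282 and 9983 CPM in Scr. Of these markers 9 were higher, 0 lower and 7 overlapped. Car1 and Car2, named after their values were seen, weighed most in the sum. Their means were 2908 and 3768 CPM in Scr and 5162 and 5343 CPM in KD. The globin genes, Alas2 and Slc4a1 were among those that overlapped. The part of the erythroid markers in the values of the factors was not tested.

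Erg, Fli1, Mecom and Tie1 are also expressed by endothelium. Of the defining endothelial markers Cdh5 had 4, 7, 7 and 0 counts in Scr 1, Scr 2, KD 1 and KD 2, near 0 in each, and Pecam1, which stem cells share, had 60.8, 72.7, 36.8 and 46.1 CPM. The 14 endothelial markers summed to 377 CPM in each Scr library and to 253 and 279 CPM in KD. Of the 12 kept, 5 were lower in both KD libraries, 2 higher and 5 overlapped, so the list had no common direction. Their part in the values of the factors was not tested. Megakaryocyte markers, which Fli1 and Erg accompany, summed to 969 and 761 CPM in Scr against 645 and 647 in KD, with 5 of 13 lower and 0 higher. Their part in the values of Fli1 and Erg was not tested. T and NK cell markers summed to 126 to 229 CPM with 2 of 11 at 0 counts in all libraries, macrophage markers to 258 to 744 CPM and mast cell and basophil markers to 71.7 to 203 CPM. In the macrophage list no marker was separate between the groups. In the mast cell list 2 of 9 were higher in KD, beside 24.5% of all genes kept. Of the sort markers, Kit stood at 1149, 1280, 670 and 774 CPM, and Ly6a, which encodes Sca-1, at 46.5, 22.8, 12.4 and 22.3 CPM, so both were present in all 4 libraries.

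**Figure D4:**
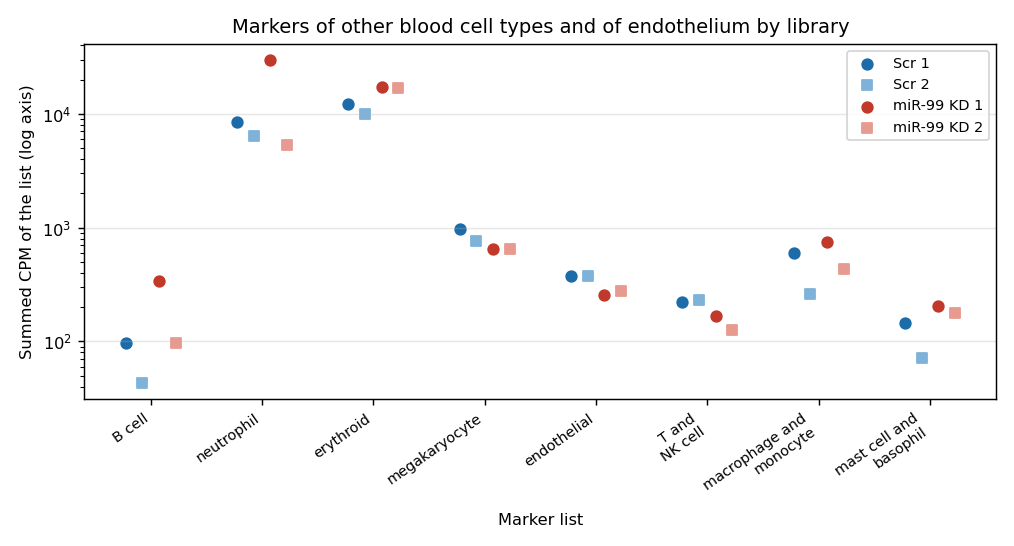
Summed CPM of each marker list on a log axis, with a point for each library. The neutrophil and B cell sums are highest in KD 1, and the erythroid sums of both KD libraries lie above those of Scr.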

How the data were processed

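The authors deposited unnormalized counts of reads for Ensembl genes, with a file for each library. STAR, HTSeq, Picard and DESeq2 and mouse build mm9 are named by the submitters' processing notes, and neither versions nor the use of strand are given in the sources used here. Per the labels, RNA from sorted cells was amplified with SMARTer, so counts can include PCR copies and counting intervals cover counting error only. Of the 45232 gene rows, 44585 matched a GENCODE M21 symbol, a release from which exon lengths also came. That release is on a later build than mm9. Rows that name no gene, 36.9% to 42.5% of reads, stayed out of library totals.

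Differences were fitted with edgeR 4.0.16 in R 4.3.3 (quasi-likelihood test, filterByExpr, TMM scaling, Benjamini-Hochberg adjustment over all 15320 genes kept, threshold 0.05), after the code was tested on simulated data. The alternatives were DESeq2 1.42.0, limma-voom (limma 3.58.1), scaling by RLE, the upper quartile or library totals alone, no filter or a filter of 10 CPM in 2 libraries, leaving out mitochondrial, globin and ribosomal protein genes, a replicate block and leaving out each library. The 8 members and all gene lists were chosen with earlier results of these data known. Of each list the text names at most 4 genes, those with the smallest edgeR p, plus exceptions said to be such. The nearest 5 patterns came from Euclidean distance over genes with a mean of at least 10 CPM. Some genes that these rules select are not reported here. Promoter and microRNA sequences are those of RefSeq on GRCm38.p6.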

Additional observations from a re-analysis of the deposited data

How the results depend on the processing

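The count of genes called by edgeR, 0 with all 4 libraries, was 887 of 15320 with DESeq2 and 1064 of 25446 with no filter, and 0 to 1013 when any library was left out (1013 of 16483 for KD 1, 437 of 16430 for KD 2). Genes at an unadjusted p under 0.05 numbered 2390, and 783 to 4342 when any library was left out (783 for Scr 2, 1143 for Scr 1, 4342 for KD 1). The median log2 difference of the 8 factors was -0.97, -1.06 with library totals alone, and -1.02 to -0.78 without each library, the latter without Scr 1. Where a group is left with a lone library, its spread is taken from the other group, and the cause of these changes was not tested. With 1 library left out, 2 libraries are set against 1, a looser criterion that more genes can meet. By it 7 to 8 factors were lower in KD, with 8 without Scr 2. The share over all genes was not counted for these settings. Of 103 values of single factors over the alternatives, 97 lay within 1 SD between replicates of the value given and 6 did not. With 2 libraries a group, leaving out 1 library moves a difference by about this SD or less. The SD is also wide for uneven factors such as Prdm16, at 0.69, so the count does not measure stability. Mllt3 alone changed sign. Prdm16 gave no value with at least 10 CPM in 2 libraries.

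Deviations from the group means correlated across genes at 0.0567 between Scr 1 and KD 1. With 2 libraries a group the remaining pair mirrors this value and adds nothing to it. Such a correlation cannot show whether libraries were prepared together, so whether those of the same number are paired is not known. A fit with a replicate block called 0 genes and counted 2049 at an unadjusted p under 0.05, and the median of the 8 factors was -0.97. The counts of genes called lower and the medians of all genes, from -0.11 to 0.03 over the alternatives, were added after seeing the data. Depth limits Prdm16 most, at 103 to 508 counts.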
